A study of Mus musculus with 60 samples.

Results

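Enzymes that break down the branched-chain amino acids were followed in 3 tissues of C57BL/6JN mice, through 10 genes taken by symbol from the 54352 genes of the deposited count table. The genes were Bcat2, Bckdha, Bckdhb, Dbt, Ivd, Mccc1, Mccc2, Hibch, Hibadh and Aldh6a1, and each symbol matched 1 row. RNA of triceps muscle and of white fat from a subcutaneous depot (scWAT) and a visceral depot (vWAT) was read by 3′ digital gene expression sequencing, in which each transcript is counted by a tag near its 3′ end. In each tissue there were 4 groups of 5 mice: sedentary on chow (10% of energy as fat), trained on chow, sedentary on a high-fat diet (HFD, 60% of energy as fat) and trained on HFD. Diets lasted 6 weeks, training was voluntary wheel running over the last 3 weeks, and all mice were 12 weeks old, had fasted for 6 hours and had had locked wheels for 24 hours. The same 20 mice gave all 60 libraries, and no genetic change is named in the labels.

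Leucine, isoleucine and valine are the branched-chain amino acids. Their breakdown starts in mitochondria, where Bcat2, the branched-chain aminotransferase, moves the amino group away, and the branched-chain ketoacid dehydrogenase complex then removes carbon dioxide in a step that cannot be reversed. Bckdha and Bckdhb encode the subunits of the complex's decarboxylase and Dbt its acyltransferase core. The products then part: Ivd (isovaleryl-CoA dehydrogenase) and both subunits of methylcrotonyl-CoA carboxylase, Mccc1 and Mccc2, act on leucine's carbon, whereas Hibch, Hibadh and Aldh6a1 act on valine's. The pathway is known to be active in muscle and in mature adipocytes, in which its carbon can feed the citric acid cycle and lipid synthesis.

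Promoter sequence is shown for 4 genes whose windows held the most copies of the CCAAT box, the letters CCAAT on either strand. It is taken from RefSeq on GRCm38.p6, the assembly that is also called mm10, as the 250 bases before the start of transcription, 5′ to 3′ on the gene's own strand. Capitals mark CCAAT, or ATTGG where the box lies on the other strand.
Ivd (chr2:118861744-118861993, plus strand): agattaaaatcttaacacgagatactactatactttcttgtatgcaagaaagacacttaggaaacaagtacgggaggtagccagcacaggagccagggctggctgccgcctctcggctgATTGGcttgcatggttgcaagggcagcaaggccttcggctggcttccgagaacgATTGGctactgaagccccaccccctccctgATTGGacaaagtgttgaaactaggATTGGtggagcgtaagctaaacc
Mccc1 (chr3:36000679-36000928, minus strand): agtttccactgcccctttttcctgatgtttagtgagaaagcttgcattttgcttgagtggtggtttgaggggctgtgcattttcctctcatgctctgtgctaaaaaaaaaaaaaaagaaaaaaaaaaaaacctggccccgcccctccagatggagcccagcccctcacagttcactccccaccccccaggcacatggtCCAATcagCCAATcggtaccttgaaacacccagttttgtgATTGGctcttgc
Mccc2 (chr13:100015640-100015889, minus strand): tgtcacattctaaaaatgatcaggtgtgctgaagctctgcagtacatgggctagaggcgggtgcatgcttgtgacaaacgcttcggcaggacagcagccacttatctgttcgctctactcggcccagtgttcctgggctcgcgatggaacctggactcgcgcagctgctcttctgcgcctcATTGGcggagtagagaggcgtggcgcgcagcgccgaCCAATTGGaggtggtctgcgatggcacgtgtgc
Aldh6a1 (chr12:84451025-84451274, minus strand): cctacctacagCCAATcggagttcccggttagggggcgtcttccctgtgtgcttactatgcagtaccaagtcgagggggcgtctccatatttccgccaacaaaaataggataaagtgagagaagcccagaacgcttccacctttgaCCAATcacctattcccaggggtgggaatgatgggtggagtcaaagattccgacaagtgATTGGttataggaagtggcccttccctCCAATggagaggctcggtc

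Ivd and Aldh6a1 held 4 boxes each and Mccc1 and Mccc2 held 3, of which a pair overlap in Mccc2. In the GENCODE annotation of the same assembly, Ivd spans chr2:118861954-118882909, Mccc1 chr3:35959312-36000678, Mccc2 chr13:99948530-100015639 and Aldh6a1 chr12:84430717-84451004. At least 3 boxes were found in 2.79% of the 32851 RefSeq windows of the same length and in 4 of the 12 windows that matched the listed genes. The 12 windows covered 9 of the 10 genes, and Dbt was not among them. At least 1 box lay in 7 of the 12 windows, belonging to 6 genes (Bckdhb and Hibadh in addition to those printed), against 33.8% of all windows. Bcat2, Bckdha and Hibch windows had none. The GC box GGGCGG was found in 4 of the 12 windows, those of 4 genes (Bckdhb, Hibadh, Hibch and Mccc1), which is near the 32.7% of all windows. The nuclear receptor half-site AGGTCA was found in 2 of the 12 windows, near the 14.0% of all windows. They belong to Aldh6a1, at a start other than the one printed, and to Bckdhb. The direct repeat AGGTCANAGGTCA, which contains the half-site at both ends, was found for none and in 0.0335% of all windows. Both strands were searched, and a match is a description of the letters, not of binding.

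Levels are given as CPM, a gene's count divided by the library's total count and multiplied by 1e+06. Library totals were 505336 to 720220 counts in scWAT. They were 580173 to 689060 in vWAT, and triceps libraries held 651030 to 744581. Adipocyte marker genes summed to 16448 to 37728 reads per scWAT library. In vWAT they summed to 25263 to 37341, and in triceps to 230 to 708. Skeletal muscle markers summed to 68252 to 139479 reads in triceps and 77 to 2932 in vWAT, but to 123 to 69373 in scWAT, where 10 of 20 libraries held over 1000. In scWAT 6 chow libraries, and none on HFD, held more than 100 reads of the lymph node genes Ccl21a, Ccl19 and Cxcl13. Library codes in the headers, read in blocks of 12, put the vWAT libraries in runs of 5 (all chow), 12 (all groups) and 3 (all HFD). Triceps libraries fell likewise, and those of scWAT fell in runs of 9 and 11 with all groups in both. Run sizes are counted within a tissue: the 3 HFD vWAT libraries and the 5 chow triceps libraries share 1 block. In bulk tissue, fewer cells of a type and less RNA per cell cannot be told apart.

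All 10 genes were lower in triceps than in either depot on the CPM scale. Over all 20 libraries of a tissue, Bcat2 was at 46.1 ± 14.5 CPM in scWAT and 51.1 ± 17.4 in vWAT and at 8.67 ± 3.66 in triceps (SD, n = 20 mice). Bckdhb was at 45.0 ± 13.1, 42.5 ± 7.99 and 8.77 ± 2.30 CPM in the same order. Mccc1, at 151 ± 47.3 and 129 ± 30.6 CPM in fat, was at 22.5 ± 4.78 in triceps. For every gene but Bckdha, no triceps library reached the lowest vWAT library, as the plot of levels by tissue shows. Triceps and scWAT libraries overlapped for Bckdha, Bckdhb, Dbt and Hibadh. As a ratio of means, the gap was narrower for Hibadh, 3-hydroxyisobutyrate dehydrogenase, at 133 ± 26.6 CPM in scWAT, 158 ± 21.7 in vWAT and 72.4 ± 13.0 in triceps. Bckdha was at 48.2 ± 9.98, 37.7 ± 9.37 and 20.1 ± 6.69 CPM.

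**Figure D1:**
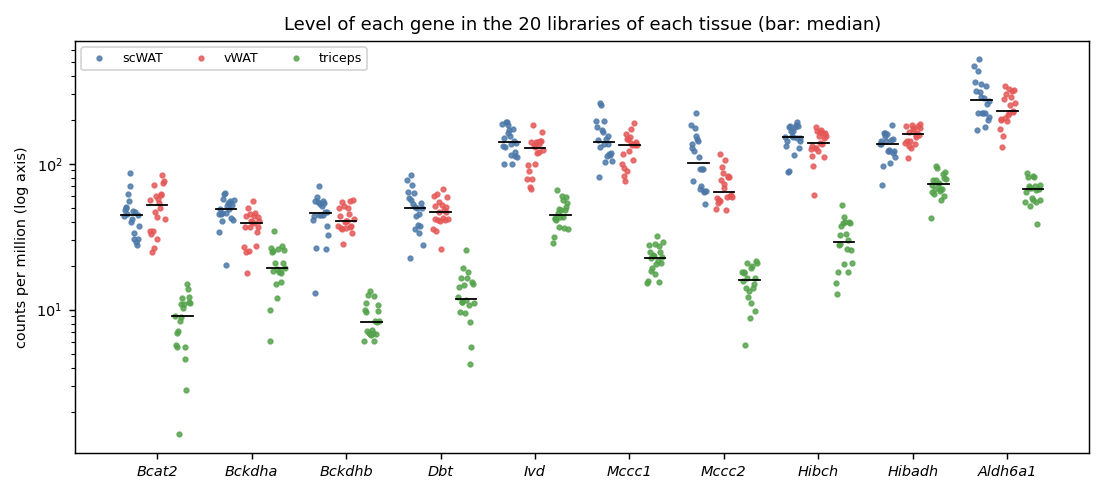
CPM (log axis) of each of the 10 genes in the 20 libraries of scWAT, vWAT and triceps, with 1 point per library and a bar at the median. Triceps medians lie lowest for every gene, with the smallest gap for Bckdha and Hibadh, and both fat depots overlap throughout.

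In fits over both tissues of the same animals, 9 of the 10 genes were called lower in triceps than in scWAT and 8 lower than in vWAT, where 47.7% and 46.7% of all genes tested were lower and 32.6% and 35.2% higher (edgeR quasi-likelihood test with the animal as a block, Benjamini-Hochberg adjusted p under 0.05 over all genes tested). Their median log2 difference was −1.25 against scWAT and −0.94 against vWAT, with −0.29 and −0.23 over all genes. Mccc2 had the lowest value against scWAT, −1.82 ± 0.13 (SE), and Bcat2 against vWAT, −1.46 ± 0.16. Bcat2 and Bckdhb were too low for the filter on low counts in triceps alone. They entered these fits through their counts in fat, where they are high, so their calls, included in both counts above, add no separate support. Hibadh was not called in either, at 0.08 ± 0.09 and −0.04 ± 0.08, nor was Bckdha against vWAT, at 0.18 ± 0.14. These log2 values depend on the scale: TMM factors, which set the bulk of genes equal between libraries, moved them by 0.97 and 1.10 relative to total counts. On total counts Hibadh was lower in triceps than in scWAT by −0.90 and Bckdha lower than in vWAT by −0.93 on the log2 scale, and both were then called. The weakest calls depended on single mice: with 1 mouse left out, Ivd against vWAT, at −0.27, was called in 6 of 20 fits and came as near to 0 as −0.14 (adjusted p up to 0.168, without trained HFD replicate 4). Bckdha against scWAT, at −0.32, was called in 9 of 20 (adjusted p up to 0.0974).

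The 2 fat depots stood closer together. As the mean over the 4 groups, 6 genes were called higher in scWAT than in vWAT and 0 lower, against 13.3% and 14.2% of all genes tested. For Aldh6a1, Mccc1 and Ivd the gap lay mainly in HFD mice. In trained chow mice they were at 255, 122 and 126 CPM in scWAT and 270, 147 and 143 in vWAT. In trained HFD mice they were at 379, 208 and 181 in scWAT and 265, 134 and 128 in vWAT. Bckdha, at 49.2 and 36.3 CPM in trained chow mice, was higher in scWAT on chow too. No test between depots was run within a group. Mccc2 differed by 0.67 ± 0.10 on the log2 scale (edgeR adjusted p = 4.83e-06), Bckdha by 0.44 ± 0.11 and Ivd by 0.37 ± 0.09. Aldh6a1, Mccc1 and Hibch lay between 0.21 and 0.32. The call of Hibch, at 0.21, held in 8 of the 20 fits that left out 1 mouse (adjusted p up to 0.0799), and was lost on total counts and without the animal block. That of Mccc1 was lost on total counts (0.21, adjusted p = 0.0666). Bcat2, Bckdhb, Dbt and Hibadh were not called.

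In visceral fat of sedentary mice, HFD lowered genes at several steps of the pathway. Of the 10 genes 6 were called lower and none higher, against 4.15% of the 6990 genes tested called lower and 3.92% higher (edgeR quasi-likelihood test, adjusted over all genes of the tissue). The 10 genes had a median log2 change of −0.74, with −0.01 over all genes, and every one was negative, on total counts too. The genes called were Bckdha of the dehydrogenase complex, all 3 genes of the leucine branch, and Hibch and Aldh6a1 of the valine branch.

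Of the leucine branch, Ivd was at 131, 140, 118, 140 and 120 CPM in the 5 sedentary chow mice and at 79.2, 98.4, 88.8, 69.7 and 67.3 on HFD. The highest HFD library lay under the lowest chow library, and the log2 change was −0.88 ± 0.17 (SE; edgeR adjusted p = 0.00103). Mccc1, the biotin-bearing subunit of methylcrotonyl-CoA carboxylase, was at 152, 174, 139, 134 and 107 CPM on chow and at 100, 116, 93.4, 82.7 and 76.2 on HFD. Only 1 chow library reached into the HFD range, and the change was −0.79 ± 0.17 (edgeR adjusted p = 0.00227). Mccc2, its partner subunit, was at 72.4, 106, 48.2, 59.3 and 82.9 CPM on chow and at 49.3, 58.0, 54.2, 56.6 and 55.3 on HFD. Its HFD libraries were close to each other and the lowest chow library lay below all of them. The change of −0.62 ± 0.19 was called with edgeR (adjusted p = 0.0308), and not after leaving out any 1 of 7 of the 10 libraries, with adjusted p up to 0.154.

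Of the valine branch, Aldh6a1, methylmalonate-semialdehyde dehydrogenase, was at 216, 326, 222, 251 and 287 CPM on chow and at 173, 203, 200, 131 and 156 on HFD. The groups did not overlap, and the change was −0.79 ± 0.16 (edgeR adjusted p = 0.00146). Hibch, the hydrolase that frees 3-hydroxyisobutyrate from coenzyme A, was at 155, 164, 139, 172 and 137 CPM on chow and at 127, 132, 113, 95.8 and 61.3 on HFD. These groups did not overlap either, and the change was −0.73 ± 0.17 (edgeR adjusted p = 0.00457). Hibadh, the enzyme between these, was at 158 ± 15.6 and 142 ± 26 CPM (SD, n = 5) and was not called, at −0.36 ± 0.14.

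At the head of the pathway, Bckdha was at 39.6, 55.4, 43.8, 39.0 and 46.2 CPM on chow and at 26.9, 37.1, 43.7, 24.7 and 17.9 on HFD. Here 4 of 5 HFD libraries lay under all chow libraries, and the change was −0.77 ± 0.22 (edgeR adjusted p = 0.0239). The call was lost without chow replicate 2 or HFD replicate 1, 4 or 5 (adjusted p up to 0.101). Bcat2 had a change of similar size, −0.75 ± 0.24, that missed the threshold (edgeR adjusted p = 0.052), with 53.2 ± 7.22 CPM on chow and 36.6 ± 11.8 on HFD. Bckdhb, the partner of Bckdha, was at 45.5 ± 7.63 and 40.6 ± 6.11 CPM and Dbt at 47.0 ± 15.0 and 44.6 ± 10.7, and neither was called.

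Diet and run were partly bound together in this comparison, since 3 of 5 sedentary chow libraries came from the run with chow only. With the run as a factor, 3 genes were called lower: Ivd, Aldh6a1 and Hibch, at −0.85, −0.77 and −0.65. Within the run of 12, with 2 chow and 4 HFD libraries, 0 of the 10 were called by edgeR. There the log2 changes were −0.79 for Ivd, −0.76 for Aldh6a1, −0.56 for Hibch, −0.46 for Mccc1, −0.54 for Mccc2 and −0.52 for Bckdha. On total counts in place of TMM factors, which moved all log2 changes of this comparison by −0.21, 4 genes were called lower (Ivd, Aldh6a1, Mccc1 and Hibch). Other cells and mitochondrial RNA moved too. Macrophage markers, of which 7 of 11 tested were called higher, summed to 532 to 733 reads in sedentary chow libraries and to 950 to 4846 on HFD. Adipocyte markers, of which 1 was called higher and 6 lower of 10, summed to 28149 to 35716 and 25834 to 30040 reads. Heart markers, 1 of 3 tested being called lower, summed to 214 to 247 reads in the 3 chow libraries of the chow-only run, to 6 and 9 in the other 2 and to 16 to 27 on HFD. The 8 liver markers were all positive, with none called, at 83 to 442 reads on chow and 88 to 3618 on HFD. Mitochondrially encoded RNA took 12.9 to 18.9% of counts on chow and 6.14 to 9.64% on HFD. The part of these in the lower enzyme genes was not tested.

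**Figure D2:**
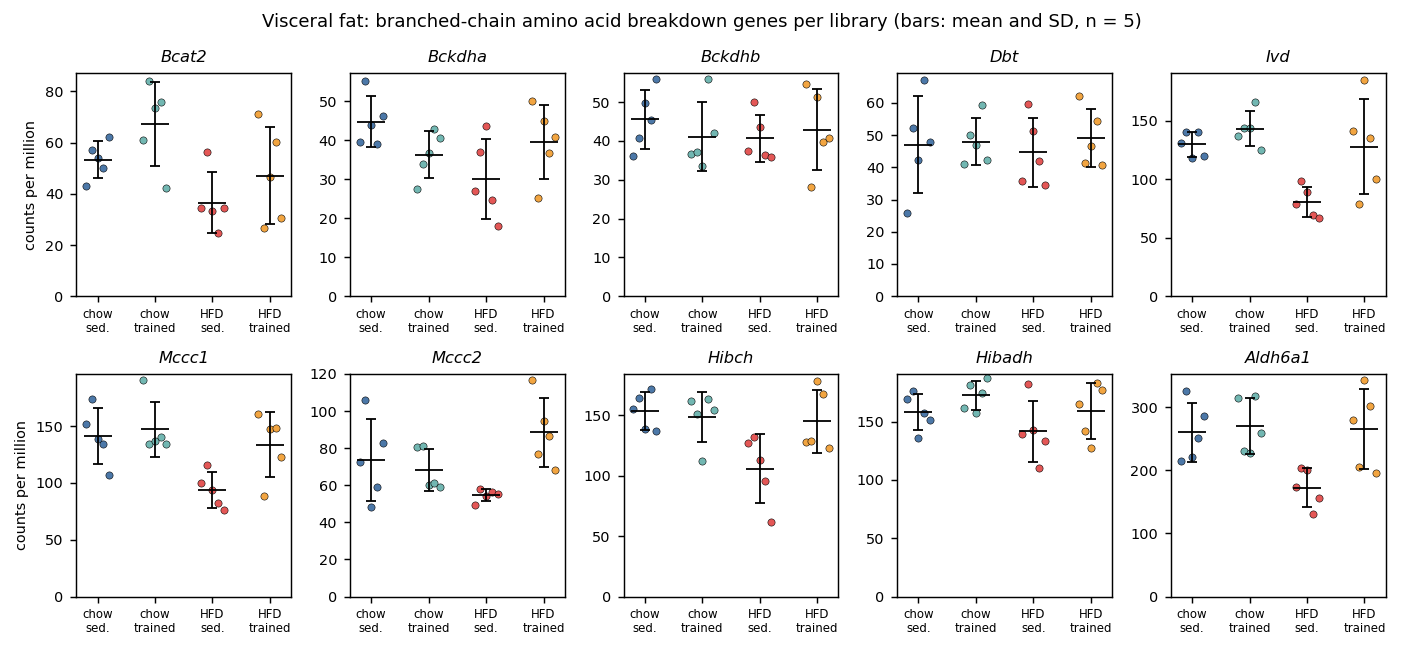
CPM in vWAT of the 10 genes by group, 1 point per mouse, with mean and SD (n = 5). In sedentary HFD mice Ivd, Hibch and Aldh6a1 lie wholly below sedentary chow mice, and in trained HFD mice most points lie within the range of the chow groups.

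In visceral fat of mice on HFD, trained mice had higher levels than sedentary mice. Of the 10 genes 3 were called higher and 0 lower, against 1.22% and 1.87% of all genes tested, and all 10 had positive changes with a median of 0.48, with 0.02 over all genes. Mccc2 was at 117, 77.0, 94.7, 86.6 and 68.0 CPM in the 5 trained mice, all above the 49.3 to 58.0 of the sedentary mice. Its log2 change was 0.76 ± 0.18 (edgeR adjusted p = 0.0156). Ivd was at 141, 78.5, 185, 135 and 100 CPM in trained mice, and Aldh6a1 at 279, 206, 343, 302 and 196. For Ivd 4 of 5 trained libraries, and for Aldh6a1 also 4 of 5, lay above every sedentary library. Their changes were 0.73 ± 0.17 and 0.68 ± 0.16 (edgeR adjusted p = 0.0147 and 0.0136). With 1 library left out, the calls of Mccc2, Ivd and Aldh6a1 held in 8, 7 and 6 of 10 fits, with adjusted p up to 0.0745, 0.079 and 0.0552. Mccc1 at 0.57 ± 0.17 and Hibch at 0.52 ± 0.17 missed the threshold (edgeR adjusted p = 0.0516 and 0.0939).

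The lowest trained library for Ivd, Mccc1, Bcat2, Bckdha and Bckdhb was replicate 2 in each case. Without trained replicate 2, Mccc1 was called as well, at 0.69. With the run as a factor, 5 genes were called higher (Mccc1 and Hibch joined), and within the run of 12, with 4 sedentary and 3 trained libraries, Mccc2 alone was called, at 0.84, with Ivd at 0.71 and Aldh6a1 at 0.67. The 3 vWAT libraries that share a block with 5 chow triceps libraries, all 3 on HFD, held 1872 to 2932 muscle reads. They also held 133 to 192 reads of intestine markers, and those triceps libraries held 97 to 131. Without these 3, the only vWAT libraries over 1000 muscle reads, 0 of 10 were called by edgeR. The changes were nevertheless 0.84 for Mccc2, 0.71 for Ivd and 0.67 for Aldh6a1. Macrophage reads were 573 to 1172 in trained HFD libraries, 3 of 11 markers tested being called lower than in sedentary mice. Mitochondrially encoded RNA took 10.6 to 11.9% of counts. Their part in the result was not tested.

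The other contrasts in visceral fat gave no call among the 10. In trained mice HFD gave 0 calls, against 1.2% of all genes higher and 1.42% lower, with a median of −0.20 and 2 genes, Bcat2 and Hibadh, at an unadjusted p under 0.05. Bcat2 stood lowest there, at −0.68 ± 0.23. Training on chow gave 0 calls, against 0.272% higher and 0.315% lower, with a median of 0.08 and no gene at an unadjusted p under 0.05. The diet by training interaction, which asks whether training acted differently on HFD than on chow, gave 0 calls, against 0.0143% higher and 0% lower. All 10 interaction values were positive, with a median of 0.50, and 5 had an unadjusted p under 0.05. Mccc2 was highest at 0.82 ± 0.26 (edgeR adjusted p = 0.407). DESeq2 and limma voom likewise called none of the 10 in these 3 contrasts. The contrasts share groups, so their values are not independent: the sedentary HFD mice enter the diet effect, the training effect on HFD and the interaction.

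**Figure D3:**
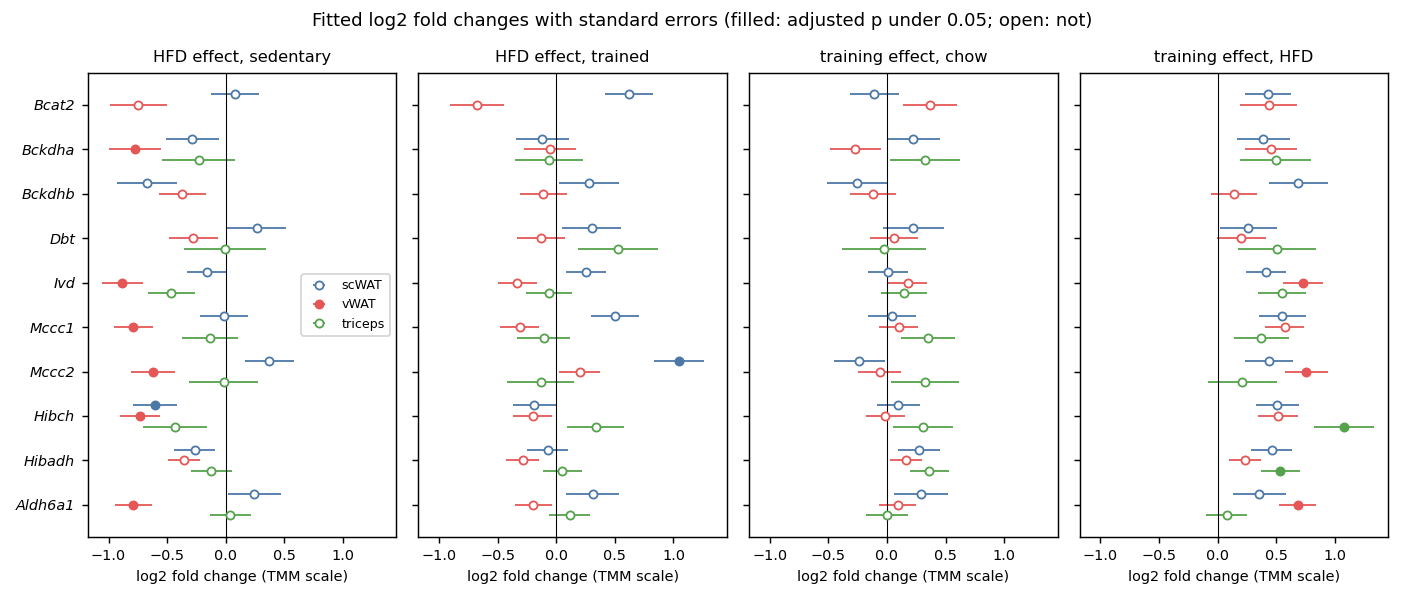
Log2 fold changes with SE of the genes tested, by contrast and tissue (n = 5 mice per group), filled where the adjusted p was under 0.05. Changes for HFD in sedentary mice are all negative in vWAT, and changes for training on HFD are all positive in all 3 tissues on this scale (on total counts Aldh6a1 in triceps was at −0.11).

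In subcutaneous fat HFD gave a different picture by gene. In sedentary mice 1 of 10 was called lower, against 2.8% of 7069 genes lower and 3.55% higher, and the median was −0.08, with −0.05 over all genes. That gene was Hibch, at 167, 115, 179, 184 and 151 CPM on chow and at 152, 133, 142, 87.3 and 88.9 on HFD. The groups overlapped, and the log2 change was −0.60 ± 0.18 (edgeR adjusted p = 0.0493). It was not called by DESeq2 (adjusted p = 0.0535) or limma voom (adjusted p = 0.0635), nor within either run, at −0.35 and −0.81. Library 4 of the sedentary HFD group had the lowest level of that group for Bckdhb, Dbt, Hibadh, Hibch, Ivd, Mccc1, Mccc2 and Aldh6a1, and held 44309 muscle reads and 18687 adipocyte reads, against at most 7671 and at least 29413 in the other 4.

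In trained mice HFD raised Mccc2 in subcutaneous fat. It was at 92.3, 65.3, 63.9, 53.1 and 65.0 CPM in trained chow mice and at 175, 224, 155, 149 and 143 on HFD. The groups were far apart, and the log2 change was 1.05 ± 0.21 (edgeR adjusted p = 0.0041). It was the 1 gene of 10 called higher, none being called lower, against 3.15% and 2.01% of all genes tested. Ivd, from 126 ± 14.8 to 181 ± 13.3 CPM, and Mccc1, from 122 ± 19.7 to 208 ± 44.6, also had groups that did not overlap on the CPM scale, and with TMM factors were at 0.25 ± 0.17 and 0.50 ± 0.20 and not called. TMM factors moved the log2 changes of this contrast by −0.27. On total counts 4 genes were called higher, namely Mccc2, Bcat2, Mccc1 and Ivd.

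Tissue composition moved with this comparison. Among trained chow libraries 3 of 5 held lymph node reads of 403 to 853, against 5 to 16 on HFD, and trained chow libraries held 213 to 69373 muscle reads, against 165 to 1359. Adipocyte reads were 18703 to 30208 and 35096 to 37728. Mitochondrially encoded RNA took 19.5 to 22.9% of counts in trained chow and 10.3 to 15.6% in trained HFD mice, and 8 of its 13 genes were called lower. The part of the mitochondrial share in the change of Mccc2 was not tested. Without the lymph node libraries, which leaves 2 trained chow mice, the change of Mccc2 was 0.75 and was not called (edgeR adjusted p = 0.15). With muscle and B cell reads as covariates it was 0.34 (adjusted p = 0.629). Within the runs it was 1.14 in the run of 9, not called, and 1.00 in the run of 11 (edgeR adjusted p = 0.0158).

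Training on HFD gave positive changes for all 10 genes in subcutaneous fat, with a median of 0.44 and −0.01 over all genes. None was called by edgeR, where 0.707% of all genes were higher and 0.297% lower. Unadjusted p was under 0.05 for 7. Bckdhb stood highest, at 0.69 ± 0.25 (edgeR adjusted p = 0.263), with 41.0, 43.8, 55.4, 12.9 and 26.5 CPM in sedentary and 59.2, 54.3, 44.8, 70.1 and 53.3 in trained mice. All 15 muscle markers were negative in this contrast, with a median of −4.60 and all 15 at an unadjusted p under 0.05, although none was called. Of 10 adipocyte markers 2 were called higher and 1 lower, and adipocyte reads were 18687 to 35468 in sedentary and 35096 to 37728 in trained mice. Leaving out the libraries over 1000 muscle reads left 2 sedentary and 4 trained HFD libraries. The changes then lay between −0.07 (Dbt) and 0.81 (Bckdhb), with the other genes positive. With muscle and B cell reads as covariates all 10 were positive, between 0.09 (Dbt) and 0.64 (Bckdhb), and none was called in either. Training on chow gave 0 calls, as it did for all genes tested (0% higher and 0% lower), with no gene of the 10 at an unadjusted p under 0.05. The interaction gave 0 calls, again 0% over all genes, with 10 of 10 positive and 2 at an unadjusted p under 0.05. DESeq2 and limma voom also called none of the 10 in these 3 contrasts.

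**Figure D4:**
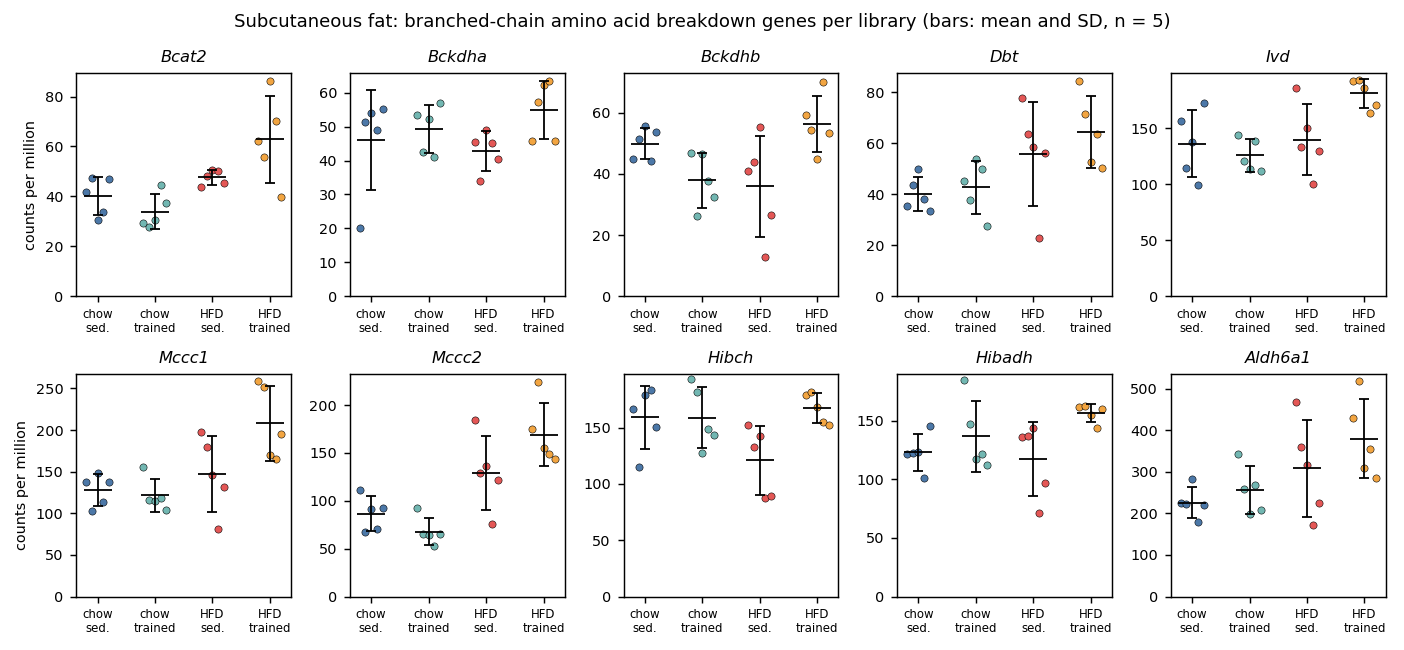
CPM in scWAT of the 10 genes by group, 1 point per mouse, with mean and SD (n = 5). Mccc2, Mccc1 and Ivd are highest in trained HFD mice and do not overlap with trained chow mice, and sedentary HFD mice are spread widely for most genes.

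The HFD effect itself was compared between depots in a fit over both, with the animal as a block. In sedentary mice 1 gene differed, Aldh6a1, with a scWAT minus vWAT difference of 0.99 ± 0.25 on the log2 scale (edgeR adjusted p = 0.0374), against 1.02% of all genes higher and 0.593% lower. It fell from 260 ± 46.2 to 173 ± 30.6 CPM in vWAT and was at 225 ± 36.7 and 308 ± 117 in scWAT, where its change was not called. In trained mice 1 gene differed, Bcat2, by 1.34 ± 0.30 (edgeR adjusted p = 0.0227), against 0.416% higher and 0.126% lower. Bcat2 was at 33.9 ± 7.03 and 62.8 ± 17.3 CPM in scWAT and at 67.3 ± 16.3 and 47.1 ± 19.0 in vWAT, with neither change called on its own. Both differences lost the call without the animal block (adjusted p = 0.0709 and 0.0648). With 1 mouse left out, the difference of Aldh6a1 was called in 3 of 10 fits (edgeR adjusted p up to 0.172). That of Bcat2 was called in 5 of 10 (edgeR adjusted p up to 0.114). The training effect on HFD gave no call for a depot difference, against 0% of all genes in both directions. Bckdhb alone had an unadjusted p under 0.05, and limma voom also called none.

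In triceps 8 of the 10 genes passed the filter on low counts, and Bcat2 and Bckdhb did not. Training on HFD raised 2 of the 8, both of the valine branch, against 3.33% of 4410 genes called higher and 2.02% lower. All 8 had positive changes, with a median of 0.50 and −0.01 over all genes, although Aldh6a1, at 0.08, was at −0.11 on total counts. Hibch was at 15.2, 12.8, 18.0, 27.6 and 32.7 CPM in sedentary HFD mice and at 28.1, 37.4, 51.8, 39.5 and 43.0 in trained mice. Here 4 of 5 trained libraries lay above all sedentary libraries, and the log2 change was 1.08 ± 0.26 (edgeR adjusted p = 0.00771). Within the run of 12 libraries it was 1.31 (adjusted p = 0.00861).

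Hibadh was at 42.5, 64.0, 72, 77.2 and 62.5 CPM in sedentary and at 67.4, 96.9, 77.0, 94.0 and 72.5 in trained HFD mice. The groups overlapped, and the change of 0.54 ± 0.17 lay at the threshold (edgeR adjusted p = 0.0496). It was not called on total counts, at 0.35 (adjusted p = 0.17), nor by DESeq2 (adjusted p = 0.0571), nor after leaving out any 1 of 7 of the 10 libraries, sedentary replicate 1 among them, without which it was 0.41. Within the run of 12 it was at 0.57 and not called (adjusted p = 0.12). Ivd was not called, at 0.55 ± 0.20 (edgeR adjusted p = 0.115), but within the run of 12 it was, at 0.80 (adjusted p = 0.0458). The other genes lay between 0.08 and 0.51 over all libraries. Mitochondrially encoded RNA took 23.9 to 33.6% of counts in sedentary and 35.8 to 43.2% in trained HFD mice, and its part in these changes was not tested.

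**Figure D5:**
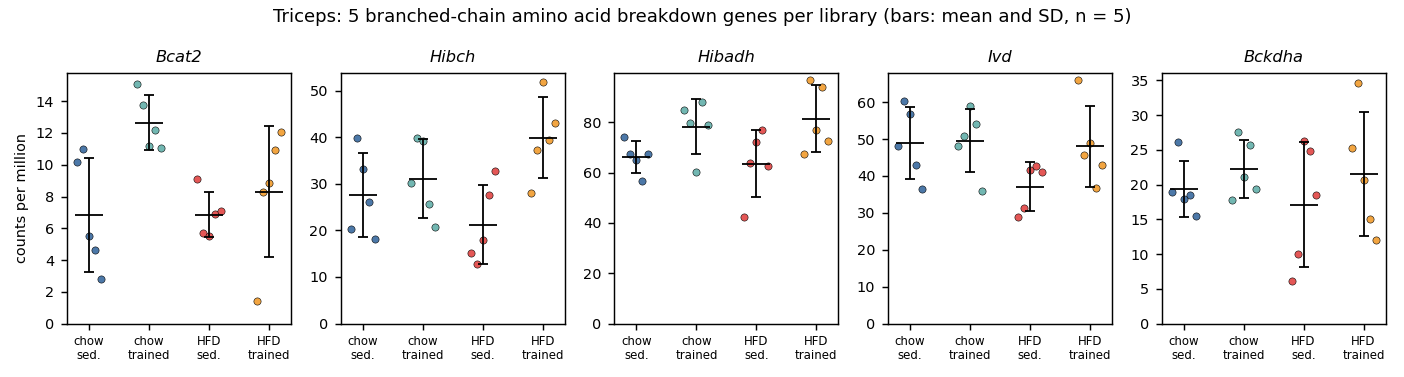
CPM in triceps of Bcat2, Hibch, Hibadh, Ivd and Bckdha by group, 1 point per mouse, with mean and SD (n = 5). Hibch is highest in trained HFD mice, and Bcat2 in trained chow mice lies wholly above sedentary chow mice.

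The remaining contrasts in triceps gave no call among the 8. HFD in sedentary and in trained mice gave none, as for all genes tested (0% higher and 0% lower in both), with 1 gene (Ivd, −0.46 ± 0.20) and 0 genes at an unadjusted p under 0.05. Training on chow gave 0, against 0.454% of all genes higher and 0.295% lower, with 1 gene (Hibadh, 0.36 ± 0.17) at an unadjusted p under 0.05. The interaction gave 0, again with 0% over all genes, and Hibch at 0.77 ± 0.37 was the 1 gene with an unadjusted p under 0.05. DESeq2 and limma voom called none of the 10 or 8 they tested in these 4 contrasts. Bcat2, outside the fit, was at 10.2, 11, 5.53, 4.61 and 2.81 CPM in sedentary and at 15.1, 13.8, 11.2, 12.2 and 11.1 in trained chow mice. These groups did not overlap: the exact two-sided permutation test gave p = 0.00794, the smallest that 5 against 5 can give, and 0.119 after adjustment over the 120 such tests of the 10 genes.

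Control of the pathway rests on the kinase Bckdk, which phosphorylates and slows the dehydrogenase complex, the phosphatase Ppm1k, which reverses this, and Slc25a44, a mitochondrial carrier of the amino acids. None of these 3 was called in any diet or training contrast, and Slc25a44 was too low for the filter in triceps. In vWAT Bckdk was at 53.2 ± 15.5 CPM in sedentary chow and 60.3 ± 12.2 in sedentary HFD mice, with a log2 change of −0.03 ± 0.20. Between tissues Bckdk ran opposite to the enzyme genes, with 1.74 ± 0.09 in triceps relative to vWAT and 1.20 ± 0.08 relative to scWAT on the log2 scale. Slc25a44 was lower there, at −0.70 ± 0.20 and −1.40 ± 0.18, but it too entered these fits through its counts in fat. Ppm1k was at 0.91 ± 0.18 and 0.55 ± 0.19, but its group means on total counts were 9.56 to 16.7 CPM in triceps, 11.3 to 16.1 in vWAT and 13.0 to 19.2 in scWAT, so its direction depended on the scale. For Bckdk the group means were 84.6 to 105 CPM in triceps, 53.2 to 68.6 in vWAT and 68.1 to 86.8 in scWAT, so on total counts triceps and scWAT overlapped.

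Of 24 further genes listed for the pathway, 20 were tested in vWAT, and 3 fell with HFD in sedentary mice: Echs1 (enoyl-CoA hydratase) by −0.72 ± 0.13, Hsd17b10 by −0.72 ± 0.15 and Pccb, a subunit of propionyl-CoA carboxylase, by −0.67 ± 0.17. None of the 20 was called higher. Of all genes tested, 4.15% were called lower and 3.92% higher. The list of 20 had a median of −0.24. Echs1 was at 399 ± 51.6 CPM on chow and 277 ± 21.1 on HFD. With training on HFD, 1 of 20 was called in vWAT, Echs1 again, by 0.71 ± 0.13, against 1.22% of all genes called higher and 1.87% lower. In triceps, training on HFD raised 5 of 18, against 3.33% of all genes called higher and 2.02% lower. They were Echs1 by 0.73 ± 0.16, Oxct1 by 0.63 ± 0.14, Dld by 0.60 ± 0.15, Mcee by 0.60 ± 0.15 and Acat1 by 0.60 ± 0.15. Dld encodes the dehydrogenase subunit that the complex shares with pyruvate dehydrogenase, and Oxct1 an enzyme of ketone body use. Oxct1 was also called higher with training on chow in triceps, by 0.58 ± 0.14, and with HFD in trained mice in scWAT, by 0.85 ± 0.17. It was the 1 gene of 18 called there in triceps and of 19 in scWAT, against 0.454% and 3.15% of all genes called higher.

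Other gene lists moved too, and not only in the contrasts in which the 10 genes were called. In vWAT of sedentary mice on HFD, 8 of 17 citric acid cycle genes, 5 of 16 fatty acid oxidation genes and 13 of 13 mitochondrially encoded genes were called lower and none higher, with medians of −0.46, −0.22 and −1.04. Of 9 fatty acid synthesis genes 7 were called lower, with a median of −1.60. Over all genes tested 4.15% were lower and 3.92% higher. With HFD in trained mice in vWAT, 0 of the 10 enzyme genes were called. There 12 of 13 mitochondrially encoded and 9 of 9 fatty acid synthesis genes were called lower. So were 1 of 17 citric acid cycle and 1 of 16 fatty acid oxidation genes, against 1.42% of all genes lower and 1.2% higher. In scWAT of sedentary mice on HFD, where 1 of the 10 enzyme genes was called lower, 4 of 17 citric acid cycle, 5 of 17 fatty acid oxidation and 9 of 13 mitochondrially encoded genes were called lower and none higher, with medians of −0.53, −0.63 and −0.96. Mitochondrially encoded RNA took 15.5 to 21.5% of counts there on chow and 8.33 to 14.6% on HFD. Of 9 fatty acid synthesis genes 7 were called lower there, with a median of −2.125. Over all genes tested 2.8% were lower and 3.55% higher. With HFD in trained mice in scWAT, 8 of 13 mitochondrially encoded and 7 of 9 fatty acid synthesis genes were called lower. There 1 of 17 citric acid cycle genes was called higher, against 2.01% of all genes lower and 3.15% higher. Training on HFD in vWAT raised 3 of 17 citric acid cycle, 1 of 16 fatty acid oxidation and 7 of 13 mitochondrially encoded genes. Medians were 0.31, 0.17 and 0.51, and 1.22% of all genes were called higher and 1.87% lower. None of the 9 fatty acid synthesis genes was called, but all 9 were positive, with a median of 0.49. In scWAT the same contrast raised 1 of 17 fatty acid oxidation genes and none of the other 3 lists. Over all genes 0.707% were higher and 0.297% lower. Medians there were 0.37 (citric acid cycle), 0.50 (fatty acid oxidation), 0.28 (mitochondrially encoded) and 0.55 (fatty acid synthesis). In triceps the same contrast raised 7 of 17 citric acid cycle, 13 of 16 fatty acid oxidation and 7 of 13 mitochondrially encoded genes. Their medians were 0.39, 0.85 and 0.46. Of the 2 fatty acid synthesis genes tested there 1 was called lower. Over all genes 3.33% were higher and 2.02% lower.

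Between mice, the 10 genes varied together in vWAT and less evenly elsewhere. Over the 20 libraries of vWAT all 45 pairs had a positive Pearson correlation of log2 CPM, with a median of 0.63, and all 45 were still positive after group means were removed, with a median of 0.45. In scWAT 42 of 45 pairs were positive, with a median of 0.48. Within groups the median was 0.57, but 10 pairs were negative: 7 of them paired Bcat2 with another gene, lowest with Mccc1 at −0.29, and 3 paired Bckdha with Ivd, Mccc1 or Mccc2. In triceps, among the 8 genes that passed the filter, 28 of 28 pairs were positive, with a median of 0.37. Within groups the median was 0.32 and 4 pairs were negative, all with Mccc2, lowest with Hibch at −0.27. These are descriptions over libraries that share depth and tissue make-up. The genes whose pattern was most like the mean of the standardised levels, over 20 libraries, were Fam13a (r = 0.95), Cfd (0.95), Ces1f (0.94), Ces1d (0.93) and Cyp2e1 (0.93) in vWAT. They were Ces1f (0.93), Etfa (0.88), Cdkn2c (0.88), Amy1 (0.88) and Aco1 (0.87) in scWAT, and Adk (0.93), Ndufc2 (0.86), Coq7 (0.85), Sdhb (0.84) and Lpl (0.84) in triceps. Cfd encodes adipsin, which adipocytes secrete, and Ces1f was among the 5 in both depots.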

How the data were processed

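Libraries were made by 3′ digital gene expression with cDNA of 12 wells pooled, per the labels' protocols, and quantified with Salmon 0.14.2 on mm10, per the submitters' processing notes. The authors' deposited table held estimated counts rounded to whole numbers and log2 CPM columns, per the file headers; the log2 columns the authors deposited were not used for any result. No strand setting is given in the sources used here.

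Each tissue was fitted with edgeR 4.0.16 in R 4.3.3 (TMM, filterByExpr by group, robust quasi-likelihood), which left 7069, 6990 and 4410 genes in scWAT, vWAT and triceps. Tissues were compared in joint fits with the animal as a block, and tissue differences in level are means over the 4 groups. Adjusted p is two-sided, Benjamini-Hochberg over all genes tested, and a gene was called below 0.05. Each SE came from the log2 change and its test statistic. CPM is on total counts. DESeq2 1.42.0 and limma 3.58.1 (voom) were alternatives. Scripts were tested on simulated data for HFD in sedentary mice in vWAT, among 6789 genes. Of 100 genes changed by 1 on the log2 scale 53% were called, and of 100 changed by 2, 95%. In addition, 15 genes that had not been changed were called. No pair of libraries in a group was identical. Runs were read from header codes and are not stated as batches. The rule named all 10 genes, other pathway genes where called, Bckdk, Ppm1k, Bcat1 and Slc25a44 always, and 5 genes per tissue by likeness of pattern (mean log2 CPM of at least 4, prior count of 2). The 10 genes and all lists were chosen with earlier results of these data known. For Dbt no promoter was used here.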

Additional observations from a re-analysis of the deposited data

Results flagged for a closer look

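The 10 genes, 3 tissues and 4 treatments formed 120 groups of 5 libraries. Of these, 5 held a library set apart from the other 4 by more than 0.71 of the group's range. Chance gives about 1 group in 20, or 6 groups here, so the number found is no more than chance gives. Bckdha in scWAT was at 20.1 CPM in sedentary chow replicate 1, against 48.9 to 55.3 in the other mice, and that library held 19227 muscle reads. Trained chow replicate 3, with 69373 muscle reads in scWAT, was not set apart for Bckdha, and the part of these reads was not tested. Mccc1 was highest in trained chow replicate 1 in both depots, at 155 CPM in scWAT, against 104 to 118, and at 191 in vWAT, against 134 to 140. Hibch in vWAT was at 112 CPM in trained chow replicate 3, against 150.0 to 163. Mccc2 in triceps was at 5.68 CPM in sedentary HFD replicate 5, against 15.6 to 18.2.

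The HFD effect differed between the fat depots in a test of the difference itself for 2 genes. Aldh6a1 in sedentary mice had a scWAT minus vWAT difference of 0.99 on the log2 scale, and Bcat2 in trained mice 1.34. With 1 mouse left out, these calls held in 3 of 10 and 5 of 10 fits. Of the 4 groups behind each value, the vWAT and scWAT groups of a diet came from the same mice, whereas chow and HFD mice were different animals. The scWAT libraries differed in muscle and lymph node reads as given above. The part of these reads in the differences was not tested.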

How the results depend on the processing

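Counts of the 10 genes called depended on the processing as follows. For HFD in sedentary mice in vWAT (6 called), the run as a factor gave 3 and the run of 12 alone 0, and leaving out 1 library gave 4 to 8. For training on HFD in vWAT (3 called), the values were 5 with the run as a factor, 1 within the run of 12 and 0 without the libraries over 1000 muscle reads, and 1 to 5 with 1 library left out. For HFD in scWAT of sedentary mice (1 called), total counts, no filter, DESeq2, voom, each run alone and both sets of libraries left out gave 0, muscle and B cell covariates 2, and 1 library left out 0 to 1. For HFD in scWAT of trained mice (1 called), total counts gave 4, the run of 9 gave 0, leaving out lymph node libraries 0, covariates 0, and 1 library left out 1 to 2. For training on HFD in triceps (2 called), total counts, no filter, DESeq2, the replicate block and the run as a factor gave 1, and 1 library left out 1 to 2. The depot differences in the HFD effect (1 called each) gave 0 with no replicate block, and 0 to 2 in sedentary and 0 to 1 in trained mice with 1 animal left out. On total counts Bckdha in triceps relative to vWAT was −0.93 and Hibadh relative to scWAT −0.90, opposite in sign to the value with TMM factors for both. Except for scaling in the tissue comparisons, where the shift of scale is the setting itself, the cause was not tested. Leaving out libraries over 1000 muscle reads was not run for the scWAT contrasts with trained chow mice, of which 1 library was left.

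Replicate numbers were not taken as pairs within a tissue, since different mice carry them. Same-number deviations still correlated above 0.1 in 16, 11 and 7 of 30 pairs in scWAT, vWAT and triceps. Their median r was 0.133, 0.034 and 0.029, against −0.057, −0.011 and −0.006 for other pairs. The replicate block gave 6 genes for HFD in sedentary vWAT and 4 for training on HFD in vWAT.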

Other observations

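Bcat1, the cytosolic aminotransferase that does the same reaction as Bcat2 outside mitochondria, was too low for the filter in all 3 tissues. In scWAT it was at 1.28 ± 1.32 CPM in sedentary chow and 14.2 ± 8.09 in sedentary HFD mice, and at 2.9 ± 2.42 in trained chow and 9.33 ± 5.05 in trained HFD mice (SD, n = 5). The sedentary groups did not overlap, with 0 to 2 counts per library on chow and 3 to 16 on HFD. In vWAT it was at 2.27 ± 1.91 CPM in sedentary chow and 6.54 ± 4.55 in sedentary HFD mice, and these groups overlapped. Macrophage reads were 271 to 846 per scWAT library in sedentary chow and 399 to 1098 in sedentary HFD mice, and their part in the Bcat1 reads was not tested.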
